A study of Mus musculus with 2 samples.

Results

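The 10 genes described here encode amino acid transporters: Slc3a2, Slc7a5, Slc7a11, Slc43a1, Slc1a5, Slc1a4, Slc38a5, Slc38a2, Slc7a1 and Slc6a9. They were listed by name, from the solute carrier families that carry amino acids across the plasma membrane, with no threshold on a measured value but with earlier results of these data known, and all 10 were found among the 21461 nuclear protein-coding genes matched in the gene tables, which hold 69691 entries in all. Total RNA was sequenced from erythroid progenitors named CFU-Ery (colony-forming unit erythroid), a stage of red cell formation, taken as primary cells from male C57BL/6J mice 5 to 6 weeks old by an isolation protocol for bone marrow. The study has 1 group, with no treatment or mutation named and no control population, and 2 libraries, called replicate 1 and replicate 2, each from 1 ng of RNA with fragments of 150 to 400 nt. The libraries have separate biosample records but the same donor record, so their spread may be partly technical, and levels are given as a description with no test between conditions.

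Erythroid progenitors divide rapidly while they begin to make globin, and they draw on amino acids for translation, on glycine for haem and on cysteine for glutathione. Large neutral amino acids such as leucine enter through a heterodimer of the heavy chain encoded by Slc3a2 and a light chain, of which the product of Slc7a5 (LAT1) is the best known, in exchange for glutamine that other carriers bring in. Leucine and arginine inside the cell are sensed upstream of the kinase complex mTORC1, and a shortage of amino acids or of haem is sensed by kinases that act through the transcription factor ATF4. Glycine taken up by the product of Slc6a9 (GlyT1) is joined to succinyl-CoA by ALAS2 in the first step of haem synthesis.

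Nuclear protein-coding genes held only 2.32% of the deposited TPM in replicate 1 and 2.70% in replicate 2, with 4717790 and 4093202 expected counts. TPM, a read count per length scaled to a fixed total in each library, is a level that can be set side by side between genes. Levels are therefore given as rescaled TPM, the deposited TPM multiplied so that the nuclear protein-coding genes sum to 1000000; 1 deposited TPM equals 43.1 rescaled TPM in replicate 1 and 37.0 in replicate 2. The 13 erythroid markers, led by Hbb-bs, Hba-a1 and Slc4a1, were all present and summed to 164832 and 164507 rescaled TPM, with a median of 1240. All 18 granulocyte and monocyte markers were present too, led by S100a9, S100a8 and Ngp, with sums of 26822 and 30962 rescaled TPM and none at 0. Other lists were lower: macrophage markers, led by C1qb, Vcam1 and C1qa, summed to 538 and 593 (11 of 12 at 1 rescaled TPM or more in both libraries), and B lymphoid markers, led by Ighm, Cd79b and Cd79a, to 812 and 757 (10 of 10). T and NK markers, led by Nkg7, Lck and Cd3g, summed to 145 and 151 (7 of 10, Cd8a at 0 counts in both), and stem and megakaryocyte markers, led by Gp9, Pf4 and Vwf, to 147 and 165 (9 of 13). The part of these other cells in the transporter levels was not tested, and in bulk RNA fewer cells of a type and less RNA per cell cannot be told apart.

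Of the 10 transporter genes, 8 reached at least 1 rescaled TPM in both libraries, against 44.6% of nuclear protein-coding genes, and the same 8 genes reached 10 rescaled TPM, against 27.2%. On the deposited scale these 8 genes also reached 1 TPM in both libraries, against 12.6% of genes. The 6 highest, Slc43a1, Slc1a5, Slc38a5, Slc7a5, Slc6a9 and Slc3a2, lay over 100 rescaled TPM in both libraries, against 5.67% of genes. The median over the 10 genes was 166 ± 4.57 rescaled TPM (SD, n = 2), against 0.586 ± 0.218 over all nuclear protein-coding genes. The median over all genes, 0.431 in replicate 1 and 0.740 in replicate 2, lies at the rounding of deposited TPM to 2 decimals. Its value and SD are therefore coarse. The remaining pair, Slc1a4 and Slc7a11, was near the limit of detection.

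**Figure D1:**
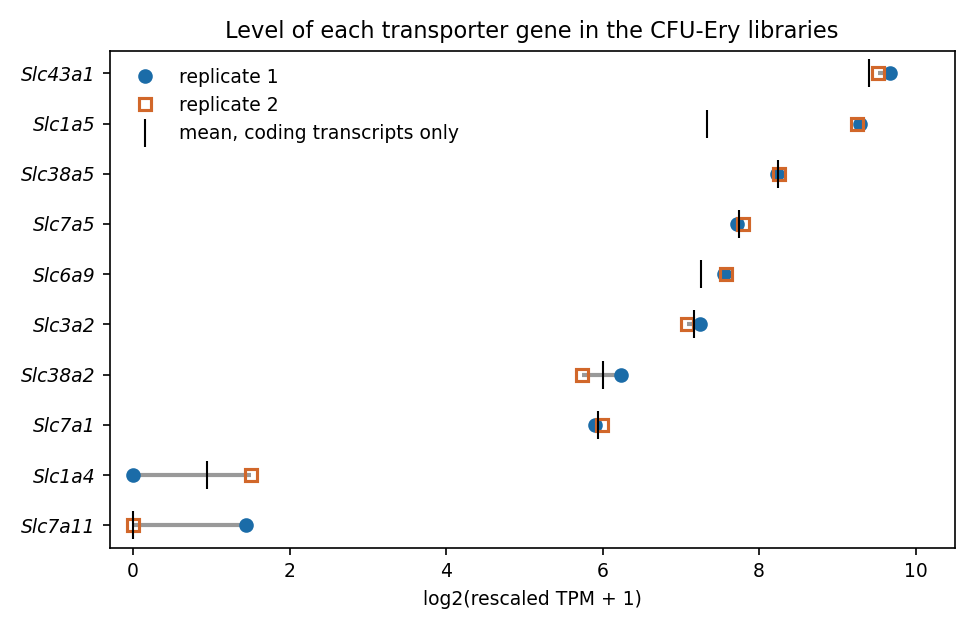
Level of each transporter gene, as log2(rescaled TPM + 1), in replicate 1 (filled circles) and replicate 2 (open squares), ordered by the mean, with a line between the replicates and a tick at the mean over coding transcripts only. The 8 genes that were clearly present have 52.2 to 816 rescaled TPM and close replicates, Slc1a4 and Slc7a11 each have 0 in 1 library, and the tick of Slc1a5 lies furthest below its points among the genes clearly present.

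Slc43a1, which encodes LAT3, a sodium-independent carrier of leucine and other branched-chain amino acids that works without the heavy chain, was the highest of the 10. The gene (ENSMUSG00000027075.12, chr2:84838850-84863594, plus strand of GRCm38, also called mm10) had 6331 expected counts in replicate 1 and 5083 in replicate 2. Its level was 816 and 736 rescaled TPM, a mean of 776 ± 56.8 (SD, n = 2), and rank 140 of the 21461 genes. Most of it was assigned to 1 coding transcript, Slc43a1-203, which took 83.3% of the gene's TPM in replicate 1 and 76.6% in replicate 2. The transcript numbered 201 took 1.46% and 4.64%, and the retained-intron transcript 205 took 13.4% and 12.2%. Slc43a1-203 begins 1217 bases downstream of Slc43a1-201, within the first intron of that transcript, and its annotated open reading frame starts in bases that Slc43a1-201 splices out, with 51 fewer coding bases in all (1770 against 1821). The coding bases of the first exon that the transcripts do not share are shown here, because they are what separates the dominant transcript from the longer frame. They lie at chr2:84840774-84840838 for 203 (65 bases) and at chr2:84839566-84839681 for 201 (116 bases) on the plus strand of GRCm38, with the annotated start codon in capitals.
Slc43a1-203: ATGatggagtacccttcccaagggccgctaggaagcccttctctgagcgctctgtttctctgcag
Slc43a1-201: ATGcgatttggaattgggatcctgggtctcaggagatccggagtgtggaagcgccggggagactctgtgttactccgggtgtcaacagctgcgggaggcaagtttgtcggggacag
The split rests on the authors' assignment of reads to transcripts that share most of their exons.

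Slc3a2, the heavy chain also called CD98 or 4F2hc, which brings its light chains to the cell surface, was present at 151 and 134 rescaled TPM (1130 and 912 expected counts). Its mean was 142 ± 11.5 (SD, n = 2), rank 923 (ENSMUSG00000010095.9, chr19:8706882-8723369, minus strand). Slc7a5, its LAT1 light chain for large neutral amino acids, was higher, at 210 and 222 rescaled TPM (2174 and 2054 counts), a mean of 216 ± 8.46 and rank 585 (ENSMUSG00000040010.10, chr8:121881150-121907694, minus strand). The log2 ratio of the level of Slc7a5 to that of Slc3a2 was 0.48 in replicate 1 (95% counting interval 0.37 to 0.58) and 0.72 in replicate 2 (0.61 to 0.84), so the light chain exceeded the heavy chain 1.52-fold on average. Over the 6 light chain genes known to pair with the heavy chain (Slc7a5, Slc7a6, Slc7a7, Slc7a8, Slc7a10 and Slc7a11, a set put together after the values were seen), the level summed to 224 and 240 rescaled TPM. Slc7a5 made up 93.6% and 92.4% of that sum. The LAT2 gene Slc7a8 came next, at 7.33 and 12.2. Nearly all of the level of both partners was on 1 coding transcript, with 94.7% and 100% of Slc3a2 on Slc3a2-201 and 100% and 98.0% of Slc7a5 on Slc7a5-201.

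Both leucine carriers were thus present, with Slc7a5 lower than Slc43a1: the log2 ratio of Slc7a5 to Slc43a1 was -1.96 in replicate 1 and -1.73 in replicate 2, a mean of -1.85 ± 0.16 (SD, n = 2), which makes Slc43a1 3.60-fold higher. A ratio of RNA levels gives no ratio of transport.

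Slc7a11, the xCT light chain that exchanges glutamate for cystine, was nearly absent (ENSMUSG00000027737.6, chr3:49892526-50443614, minus strand). It had 15 expected counts in replicate 1 (95% counting interval 8.40 to 24.7) and 1 in replicate 2 (0.0253 to 5.57), which is 1.73 and 0 rescaled TPM, from deposited values rounded to 2 decimals, where 3 counts would give 0.385 and 0.423. All of these counts were assigned to the retained-intron transcript Slc7a11-204 and none to the coding transcript Slc7a11-201. In replicate 1 the heavy chain Slc3a2 was 78.2-fold higher than Slc7a11, and the log2 ratio of Slc7a11 to Slc3a2 was -6.29 (counting interval -7.13 to -5.56). In replicate 2, with 1 count, it was -9.89 (-15.2 to -7.41). In other cells Slc7a11 is a known target of ATF4 through the amino acid response element, whose core was searched as TGATGNAA on both strands. The 250 bases before its RefSeq start (chr3:50443614-50443863, minus strand, GRCm38.p6) hold 2 matches, both spelled TGATGCAA. Positions, here and below, give the base of a match that lies furthest upstream along the gene. The first match is at -66 on the strand of the gene and the other at -47 on the opposite strand. At least 1 match was found in 3.45% of 32851 such windows and at least 2 in 0.0396%. The window is shown with both matches in capitals, since it is the only one of these windows with a match and its gene was near the limit of detection.
Slc7a11 upstream: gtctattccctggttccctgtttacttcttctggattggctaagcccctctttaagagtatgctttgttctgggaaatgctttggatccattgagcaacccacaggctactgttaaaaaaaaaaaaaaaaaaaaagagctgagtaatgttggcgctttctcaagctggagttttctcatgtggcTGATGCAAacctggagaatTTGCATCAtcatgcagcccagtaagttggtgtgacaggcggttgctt
With the 50 bases after the start included, Slc1a4 also held a match, at -4 on the opposite strand, so 2 of the 11 RefSeq windows of these genes (8 genes, some with several starts) had one, against 3.97% of all windows. A GATA sequence (AGATAA or TGATAA) was in 0 of the 11 windows of 250 bases, against 16.6% of all windows. The E-box CACGTG was in 2 of 11, those of Slc38a5 and Slc43a1, against 6.02%, and CCACACCC in 0 of 11, against 3.20%. The RefSeq start is not always that of the main transcript: Slc43a1-203 begins 302 bases downstream of it, and no window of Slc6a9 lies before the start of Slc6a9-202. These matches are descriptions of letters and not of binding.

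Slc1a5, which encodes ASCT2, a sodium-dependent exchanger that brings in glutamine, was the next highest gene after Slc43a1 (ENSMUSG00000001918.13, chr7:16781340-16798274, plus strand). It had 4758 and 4135 expected counts, 625 and 611 rescaled TPM, a mean of 618 ± 10.0 (SD, n = 2) and rank 185. Its gene level was steady between the libraries, but its transcripts were not mainly coding. The coding transcript Slc1a5-201 took 31.8% of the gene's TPM in replicate 1 and 20.0% in replicate 2, whereas Slc1a5-202, annotated as retained intron, took 59.9% and 68.6%. All retained-intron transcripts together took 68.2% and 79.7%, a mean of 74.0% ± 8.14 (SD, n = 2). Among the 1216 genes over 100 rescaled TPM in both libraries, 6.41% had at least 50% of their TPM on retained-intron transcripts in both libraries, a background added after the values were seen, and the median gene had 0%. Counted on coding transcripts alone, Slc1a5 was 198 and 122 rescaled TPM, a mean of 160 ± 54.0, and moved from place 2 to place 4 of the 10 by its mean. Its place against Slc6a9 (159 and 146) and Slc3a2 (151 and 134) is not resolved, since its range covers theirs.

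Slc1a5-202 differs from Slc1a5-201 within the gene body by keeping the intron between exons 7 and 8 of the 9 exons of Slc1a5-201. This intron has 71 bases, which is not a multiple of 3, and lies at chr7:16795953-16796023 on the plus strand of GRCm38. It is shown in capitals with 40 bases of exon on each side (chr7:16795913-16796063), as the stretch within the gene body by which the annotated transcripts differ. The Slc1a5-201 that the authors quantified had 2741 bases, against 2764 in the annotation used here, so that model differs from the one described.
Slc1a5 intron: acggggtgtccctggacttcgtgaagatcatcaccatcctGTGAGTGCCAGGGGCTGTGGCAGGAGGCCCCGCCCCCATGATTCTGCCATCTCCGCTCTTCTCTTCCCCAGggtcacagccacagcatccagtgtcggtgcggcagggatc
The intron begins with GT and ends with AG. The tables give no read counts on the junction itself, so the share comes from the authors' assignment of reads between transcripts that are otherwise nearly alike.

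**Figure D2:**
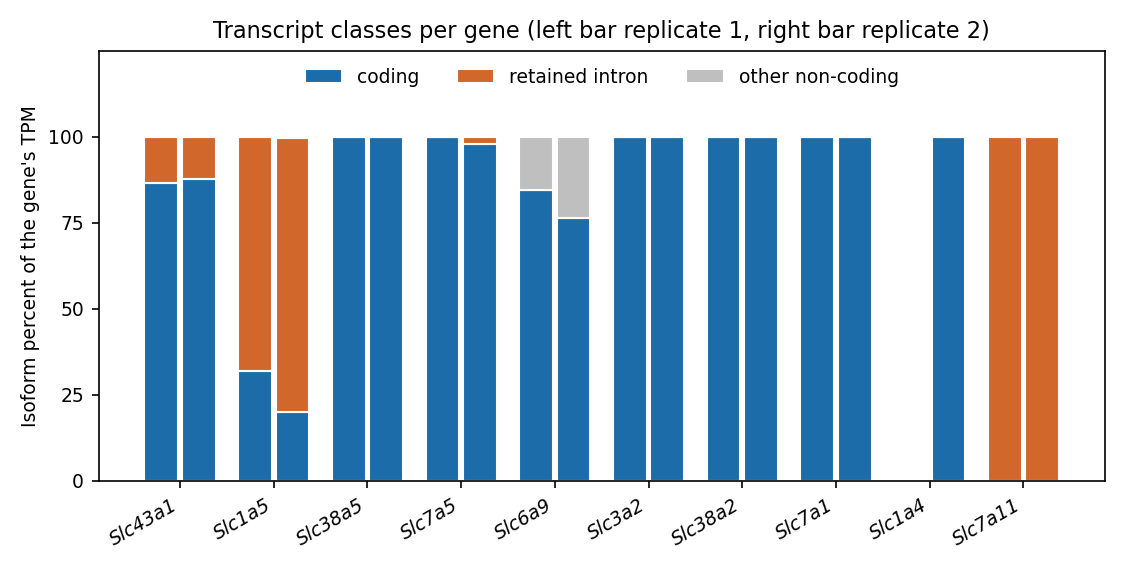
Isoform percent, the share of each gene's TPM, on coding, retained-intron and other transcripts, with 1 bar for each replicate. The other class, drawn as other non-coding, includes the Slc6a9 transcript annotated for nonsense-mediated decay. Slc1a5 has 68.2% and 79.7% on retained-intron transcripts and Slc7a11 100% of its few counts, while Slc3a2, Slc38a2, Slc38a5 and Slc7a1 lie wholly on coding transcripts and Slc1a4 has no counts in replicate 1.

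Slc1a4, the ASCT1 exchanger of alanine, serine and cysteine and the closest relative of Slc1a5 in the list, had 0 expected counts in replicate 1 and 18 in replicate 2 (95% counting interval 10.7 to 28.4). These were 0 and 1.85 rescaled TPM (ENSMUSG00000020142.8, chr11:20302180-20332713, minus strand), where 3 counts, the floor set for a count of 0, correspond to 0.260 in replicate 1. With the floor of 3 counts in place of 0 for Slc1a4, Slc1a5 was 2401-fold higher in replicate 1. The 95% log2 interval from the counts began at 10.9 in that library. In replicate 2 Slc1a5 was 354-fold higher than Slc1a4 (log2 interval 7.80 to 9.22). The pair therefore differed in both libraries far beyond counting error. The place of Slc1a4 against Slc7a11 is not resolved, since their ranges overlap. Computed from counts per length in place of the rounded TPM, Slc1a4 was at 0 and 1.73 rescaled TPM and Slc7a11 at 1.93 and 0.141, which turns their order.

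The sodium-coupled carriers of the SLC38 family were both present. Slc38a5, which encodes SNAT5, a system N carrier of glutamine, glycine and serine, had 299 and 304 rescaled TPM (1590 and 1485 counts), a mean of 302 ± 3.36 (SD, n = 2) and rank 404 (ENSMUSG00000031170.10, chrX:8271133-8280179, plus strand). Slc38a2, which encodes SNAT2, the system A carrier that many cells induce when amino acids are short, was lower, at 74.6 and 52.2 rescaled TPM (1026 and 652 counts), a mean of 63.4 ± 15.9 and rank 2093 (ENSMUSG00000022462.6, chr15:96687392-96699730, minus strand). The log2 ratio of Slc38a5 to Slc38a2 was 2.00 in replicate 1 and 2.54 in replicate 2, a mean of 2.27 ± 0.38, or 4.84-fold. All of Slc38a5 in replicate 1 was on Slc38a5-201, which took 84.1% in replicate 2, where Slc38a5-202 took 15.9%.

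Slc7a1, which encodes CAT1, the carrier of arginine and lysine, had 58.7 and 62.5 rescaled TPM (1268 and 1131 counts), a mean of 60.6 ± 2.73 (SD, n = 2) and rank 2185 (ENSMUSG00000041313.10, chr5:148327410-148399904, minus strand). Its values lay inside the range of Slc38a2, so the order of these neighbours is not resolved. Every other neighbour from Slc43a1 down to Slc38a2 had ranges that did not overlap.

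Slc6a9, the sodium- and chloride-coupled glycine carrier, had 187 and 191 rescaled TPM (1643 and 1473 counts), a mean of 189 ± 2.35 (SD, n = 2) and rank 686 (ENSMUSG00000028542.13, chr4:117834506-117875198, plus strand). Its level is uncertain, because its transcripts share 1429 exon bases with Ccdc24 on the opposite strand and the use of strand in counting is not given in the sources used here. Ccdc24 itself had 86.3 and 93.3 rescaled TPM. Of the 25-base words of Slc6a9 transcripts, 29.4% occur in transcripts of other genes when either strand counts, against at most 6.39% for the other transporter genes, but only 0.841% occur on the same strand, which is the share that applies if counting used strand. Among the 8 genes clearly present its coding share was the lowest after that of Slc1a5. Slc6a9-202 took 78.3% in replicate 1 and 49.0% in replicate 2, the transcript 207, annotated for nonsense-mediated decay, took 11.6% and 23.5%, and the coding transcript 210 took 0% and 13.2%. Coding transcripts together held 84.5% and 76.5%.

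Downstream of glycine uptake, Slc25a38, the mitochondrial glycine carrier, had 279 and 372 rescaled TPM. The log2 ratio of Slc6a9 to Slc25a38 was -0.57 in replicate 1 and -0.96 in replicate 2, a mean of -0.77 ± 0.28, which makes Slc25a38 1.70-fold higher. From expected counts without length the log2 ratio turned to 0.31, and the level of Slc6a9 is uncertain, as given above. Of the 10 genes of glycine use and the start of haem synthesis, 8 reached 1 rescaled TPM in both libraries and 6 reached 10. Alas2, the erythroid enzyme that consumes glycine, was the highest at 2673 and 2879. Gldc and Amt, which encode parts of the glycine cleavage system, were listed at 0 rescaled TPM, with 0 counts in both libraries for Gldc and 0 and 1 for Amt.

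Among 44 genes for plasma membrane amino acid transporters, the 10 genes described here and 34 others, the 10 held 80.3% ± 0.727 of the summed level (SD, n = 2). They were 0.237% ± 0.00772 of the nuclear protein-coding total. They took 8 of the 10 highest places. The other places went to Slc16a10, which encodes TAT1, a carrier of aromatic amino acids, at 359 and 337 rescaled TPM, and to Slc6a20a, a proline carrier gene, at 188 and 155. The counts of Slc6a20a are not whole, and reads may be shared with its paralog Slc6a20b. Next came the glutamate carrier gene Slc1a3 at 20.3 and 6.66, the taurine carrier gene Slc6a6 at 12.5 and 11.8, Slc7a8 at 7.33 and 12.2, and the SNAT1 gene Slc38a1 at 9.92 and 8.51. Of the 34 other genes, 10 reached 1 rescaled TPM in both libraries, 3 reached 10, and 22 had 0 counts in both. Both lists were chosen with earlier results of these data known, so the share and the places depend on that choice and are a description.

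**Figure D3:**
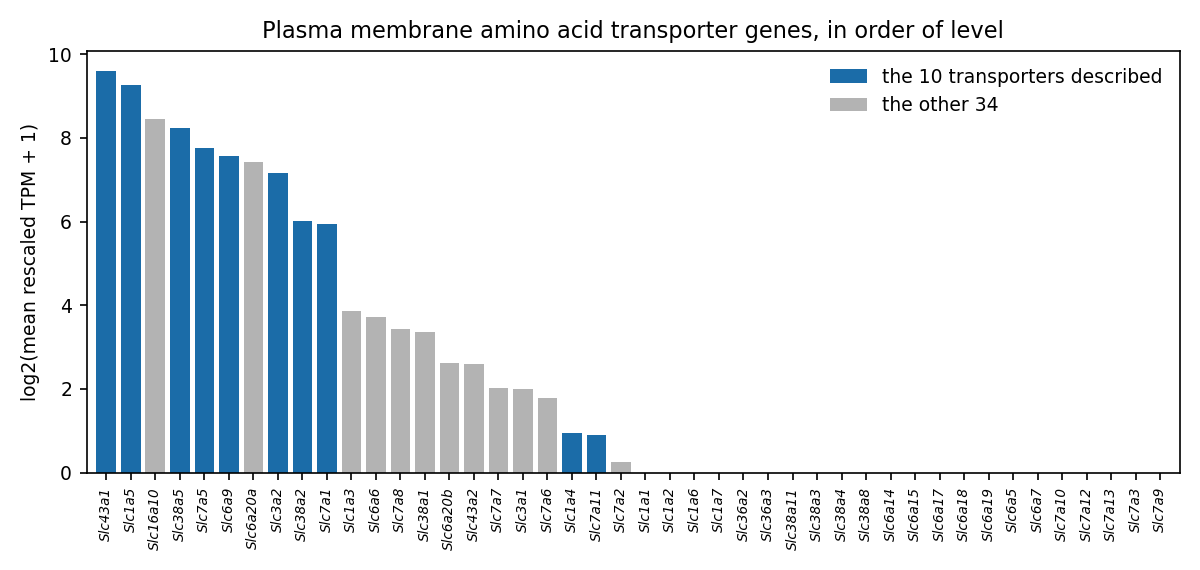
Bars give log2(mean rescaled TPM + 1) over the libraries for 44 plasma membrane amino acid transporter genes in order of level, the 10 described genes in blue and the 34 others in grey. Among the grey bars only Slc16a10 and Slc6a20a stand for more than 50 rescaled TPM, and 22 have no height because their counts were 0 in both libraries.

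Genes around these carriers were present at varied levels. Of 9 matched genes for lysosomal and other intracellular carriers, 7 reached 1 rescaled TPM in both libraries and 3 reached 10, with a median of 8.32. The cysteine carrier gene Mfsd12 had 29.8 and 27.4, the arginine-sensing lysosomal carrier gene Slc38a9 had 22.4 and 15.5, and Slc38a10 had 17.7 and 14.8. The lowest were Slc38a7 at 2.16 and 0.740 and Slc7a14 at 0 and 0.370. Of 29 matched genes for amino acid sensing upstream of mTORC1, 26 reached 1 rescaled TPM in both and 15 reached 10, with a median of 12.3. The highest were Nprl3, part of the GATOR1 complex, at 80.7 and 108.1, Sesn1, of the leucine-sensing sestrins, at 91.0 and 66.2, and Rheb, the GTPase that activates mTORC1, at 65.6 and 70.7. The arginine sensor gene Castor1 had 0 counts in both libraries and Castor2 had 0 and 1.11 rescaled TPM.

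Of 19 genes of the response to amino acid starvation, 14 reached 1 rescaled TPM in both libraries and 10 reached 10, with a median of 11.8. Atf4 RNA had 363 and 290, and Asns, the asparagine synthetase gene, had 167 and 75.1. Eif2ak1, which encodes the haem-regulated kinase HRI, had 256 and 271. Eif2ak4, the gene of a related kinase in the same list, had only 3.45 and 3.33. Trib3 had 0 counts in both libraries, and Atf5 had 0.863 and 0 rescaled TPM. Among 11 genes of glutathione and cystine use, a list that holds Slc7a11 itself, 9 reached 1 rescaled TPM in both and 8 reached 10, with a median of 93.8. The peroxidase genes Gpx1 and Gpx4 had 4333 and 4495 and 486 and 604, and Gclm, which encodes a subunit of the rate-limiting enzyme of glutathione synthesis, had 280 and 315. Ggt1, which breaks down extracellular glutathione, had 0 counts in both. Gss, the glutathione synthetase gene, had 7.77 and 5.92 rescaled TPM (21 and 22 counts). The cystine carrier gene Slc7a11 had 15 counts and 1 count in these libraries, and a link between it and the other genes was not tested.

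Of the 8 transporter genes with a mean of at least 20 expected counts, 0 differed over 2-fold between the libraries, against 17.1% of 9078 genes tested. Genes that average 600 to 6000 counts, a range added after the values were seen, differed over 2-fold in 0.783% of 1404, so 0 of 8 is near the background for genes of this depth. The filter on counts left out Slc1a4 (0 and 18 counts) and Slc7a11 (15 and 1 counts), which both differ over 2-fold when it is dropped. Differences are on the log2(rescaled TPM + 1) scale, replicate 1 minus replicate 2, with the median shift of 0.08 over all genes removed. They ran from -0.17 for Slc7a1 to 0.43 for Slc38a2, 3 positive and 5 negative. Genes over 2-fold higher in replicate 1 were 8.72% of those tested and genes over 2-fold higher in replicate 2 were 8.33%, with 0 of the 8 in either direction. Their median absolute size was 0.10, against 0.19 for genes in that count range and 0.39 for all genes tested. Counting intervals were computed on another scale, the log2 ratio of expected counts divided by each library's nuclear protein-coding counts, with no length term and no centring. On that scale Slc38a2 was at 0.45 (95% counting interval 0.31 to 0.59) and Slc7a1 at -0.04 (-0.16 to 0.08). The interval of the count ratio also left out 0 for Slc43a1, Slc38a5 and Slc7a5, and it held 0 for Slc1a5, Slc6a9 and Slc3a2. Such an interval does not include the spread between animals or preparations. With 1 group of 2 libraries no p-value was computed: the smallest that an exact sign-flip test allows is 0.5.

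**Figure D4:**
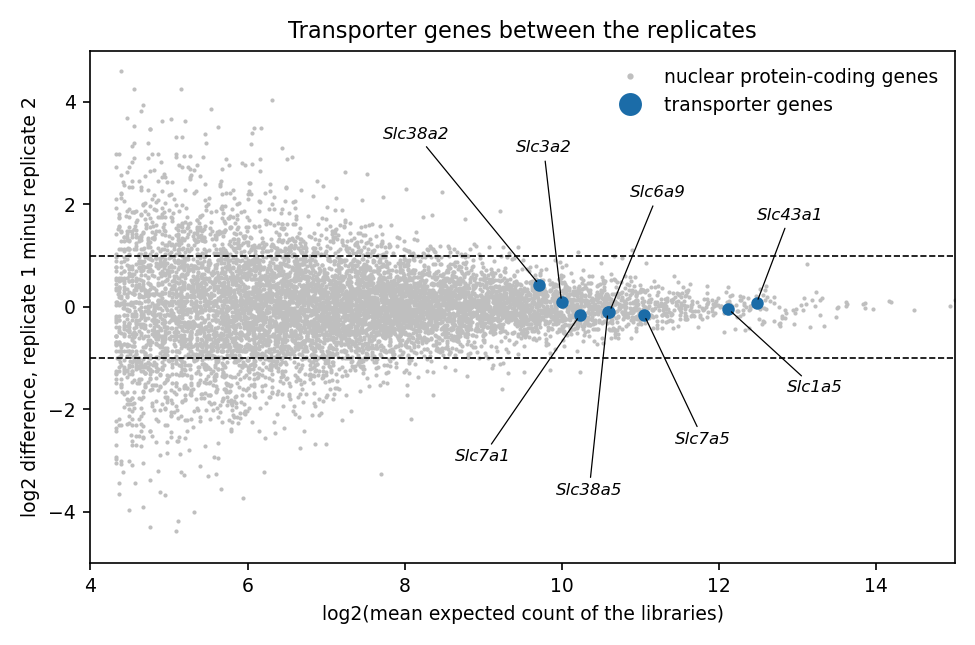
Log2 difference between the libraries, replicate 1 minus replicate 2, against the log2 of the mean expected count for the 9078 genes tested, of which 11 lie outside the plotted range. The 8 transporter genes, in blue, lie between -0.17 and 0.43, inside the dashed lines at a 2-fold difference.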

How the data were processed

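Total RNA libraries of 1 group were analysed, 2 replicates as numbered in the labels, each with a gene and a transcript table made on mm10 with GENCODE M4, per the deposited file descriptions. Which aligner and quantifier were used, and whether strand was used, was not given in the sources used here. Each table holds 1 library. The authors deposited expected counts, estimated reads that can be fractional (143491647 and 110634458 in total). Per the file headers, TPM was also deposited, scaled over every entry of a table and written to 2 decimals, and so was FPKM, which depends on length and depth. The deposited isoform percent is a transcript's share of its gene's TPM, per the file headers. The deposited credibility bounds were treated as a score and not used. The 37 genes of the mitochondrial genome held 89.5% and 86.7% of the TPM, so a shift in their share moves every deposited TPM.

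Gene names and 1-based coordinates came from GENCODE M21 on GRCm38 by Ensembl identifier without version (42462 of 43346 matched, 884 not). Entries with no gene name (0 and 8 counts) were left out. Of the listed genes, Slc66a1 and Samtor were not matched. Sequences came from the GRCm38 transcripts and annotation and from RefSeq (GRCm38.p6); windows were found for 8 of the 10 genes, and Slc7a5 and Slc1a5 were not among them. Intervals are exact at 95% and the floor is 3 counts; both cover counting error only. Partner ratios use rescaled TPM, or counts per length for genes at the floor. Detection, order, replicate differences (mean count of at least 20, pseudocount of 1, called over 2-fold) and ratios were computed with Python 3.11.15, numpy 2.4.6, pandas 2.3.3 and scipy 1.17.1; edgeR 4.0.16 and DESeq2 1.42.0 in R 4.3.3 gave only alternative scaling factors for the rounded expected counts. The code that calls replicate differences was run on simulated counts with counting error only and changes well past the 2-fold call. That run checks the code and gives no error rate for these libraries. All 10 genes are named, with the 6 highest other plasma membrane transporters and genes of the partner ratios. Of each other list the 3 highest and 2 lowest genes are named, and of each marker list the 3 highest and any absent gene. Genes that overlap Slc6a9, light chains, Gss and Eif2ak4 were named after their values were seen. No gene was sought for a like pattern, since 2 libraries of 1 group give none. The genes and lists were chosen with earlier results of these data known.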

Additional observations from a re-analysis of the deposited data

How the results depend on the processing

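No paired analysis was possible because the study has 1 group. The number of transporter genes detected stayed at 8 with a threshold of 10 rescaled TPM or of 1 deposited TPM, and was 9 with either replicate alone. Their median level was 162 and 169 rescaled TPM with a single library, 4.15 in deposited TPM, where the unit itself changes, and 141 on coding transcripts only, an alternative chosen after seeing the data. In the order of levels, 8 of 10 genes kept their place by posterior mean TPM, by FPKM and in each library alone, and 7 on coding transcripts only. Between replicates, 0 of the 8 transporter genes tested differed over 2-fold under each other pseudocount, scaling or centring tried. Of all 9078 genes, 20.4% did so with a pseudocount of 0.1, 17.1% with no centring and 17.4% with edgeR or DESeq2 scaling. The share was 12.4% with posterior mean TPM and fell to 0.353% (32 genes) with a pseudocount of 1 on deposited TPM. With no filter on low counts 2 of the 10 transporter genes differed over 2-fold, Slc7a11 and Slc1a4, against 14.0% of genes. Of 56 values of the 8 genes tested singly under these alternatives, all stayed within 2-fold and 5 had the other sign. The 8 values with no filter equal those with no centring, because the median removed was 0 in both settings. A sign change of Slc1a5 is therefore counted again among the 5. Ratios from counts without length, which drop the length term by construction, were 1.06 for Slc7a5 to Slc3a2, -1.42 for Slc7a5 to Slc43a1, 0.91 for Slc38a5 to Slc38a2 and, with the other sign, 0.31 for Slc6a9 to Slc25a38. Depth limits the values of Slc1a4 and Slc7a11 and the transcript shares of the lower genes.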
